A study of Arabidopsis thaliana with 6 samples.

Results

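Genes of gibberellin metabolism and signalling, 10 in number, were followed in developing leaves of Arabidopsis thaliana. They were taken by locus from the deposited table of 21428 probe sets, each probe set being named by its locus, and all 10 were present. They are the synthesis genes GA20OX1 (AT4G25420_at), GA20OX2 (AT5G51810_at) and GA3OX1 (AT1G15550_at), and the inactivation genes GA2OX2 (AT1G30040_at), GA2OX4 (AT1G47990_at) and GA2OX6 (AT1G02400_at). The others are the receptor gene GID1A (AT3G05120_at) and the DELLA repressor genes GAI (AT1G14920_at), RGA (AT2G01570_at) and RGL3 (AT5G17490_at). The samples were 3 arrays of AN3-GR plants and 3 of wild type plants, all of the accession Columbia-0 and described as biological repeats. AN3-GR joins the transcriptional coactivator AN3 to the glucocorticoid receptor domain, which holds a fused protein inactive until a steroid is given. Seedlings of both genotypes grew for 8 days with 16 h of light a day and then spent 8 h on 5 µM dexamethasone, after which leaves 1 and 2 were dissected. The promoter of the fusion and the number of independent lines are not given in the sources used here. Without untreated AN3-GR plants, which were not analysed here, what the steroid sets off in AN3-GR and what already set the lines apart cannot be told apart.

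Gibberellins are diterpenoid hormones that promote cell division and cell expansion in growing leaves. The 20-oxidases and 3-oxidases carry out the last steps to the bioactive forms, and the 2-oxidases inactivate bioactive forms and their precursors. Bioactive gibberellin binds a GID1 receptor, which then binds DELLA proteins and leads, through the F-box protein SLY1, to their breakdown. In Arabidopsis this signalling feeds back on transcripts: gibberellin lowers those of several 20-oxidase, 3-oxidase and GID1 genes and raises those of several 2-oxidase genes.

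Expression values are on the log2 scale after RMA, so that a difference of 1 is a 2-fold change, and a positive difference means a higher level in AN3-GR. Array medians lay between 6.22 and 6.32. A probe set was called at an adjusted p under 0.05 (limma, Benjamini-Hochberg over all probe sets). AN3 itself had 10.56, 10.02 and 10.55 on the AN3-GR arrays against 7.39, 6.98 and 7.61 on the wild type arrays, higher on every array labelled AN3-GR, although the transgene and the native gene are not separated. The 3 measured leaf photosynthesis markers had mean levels of 12.98 to 13.22 on the AN3-GR arrays and 13.18 to 13.37 on the wild type arrays. Of the shoot meristem and boundary markers 6 of 9, and of the root markers 4 of 5, lay on every array under 4.06, the lower quartile of all probe set means. A level under that quartile is called weak here, since RMA compresses differences between weak signals.

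Across the 10 genes the clearest differences were in 2 inactivation genes. GA2OX2 and GA2OX6 stood at 72.0% and 75.2% of the wild type level in AN3-GR leaves. The other 8 genes had log2 changes between −0.18 and 0.09. In the fit without the replicate number 0 of the 10 were called, against 0.789% of all probe sets, and 2 of the 10, both lower, had an unadjusted p under 0.05, against 18% of all probe sets in either direction and 7.86% lower (limma). With the replicate number as a block, 2 of the 10 were called, GA2OX2 and GA2OX6, both lower in AN3-GR. In that fit 6.63% of all probe sets were called and 3.03% were called lower. Of the 10 genes 9 had a negative change, with a median of −0.08, beside 54.2% of all probe sets and a median of −0.02. After quantile normalization 7 of the 10 were negative, with a median of −0.08, beside a median of 0.0002 over all probe sets. The AN3-GR array lay under the wild type array of its number in all 3 pairs for 4 of the 10, GA2OX2, GA2OX4, GA2OX6 and GID1A, and for 23.6% of all probe sets. In none of the 10 were the arrays of the genotypes fully apart, which was so for 22.2% of all probe sets. In these bulk samples, fewer cells of a type and less RNA per cell cannot be told apart.

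**Figure D1:**
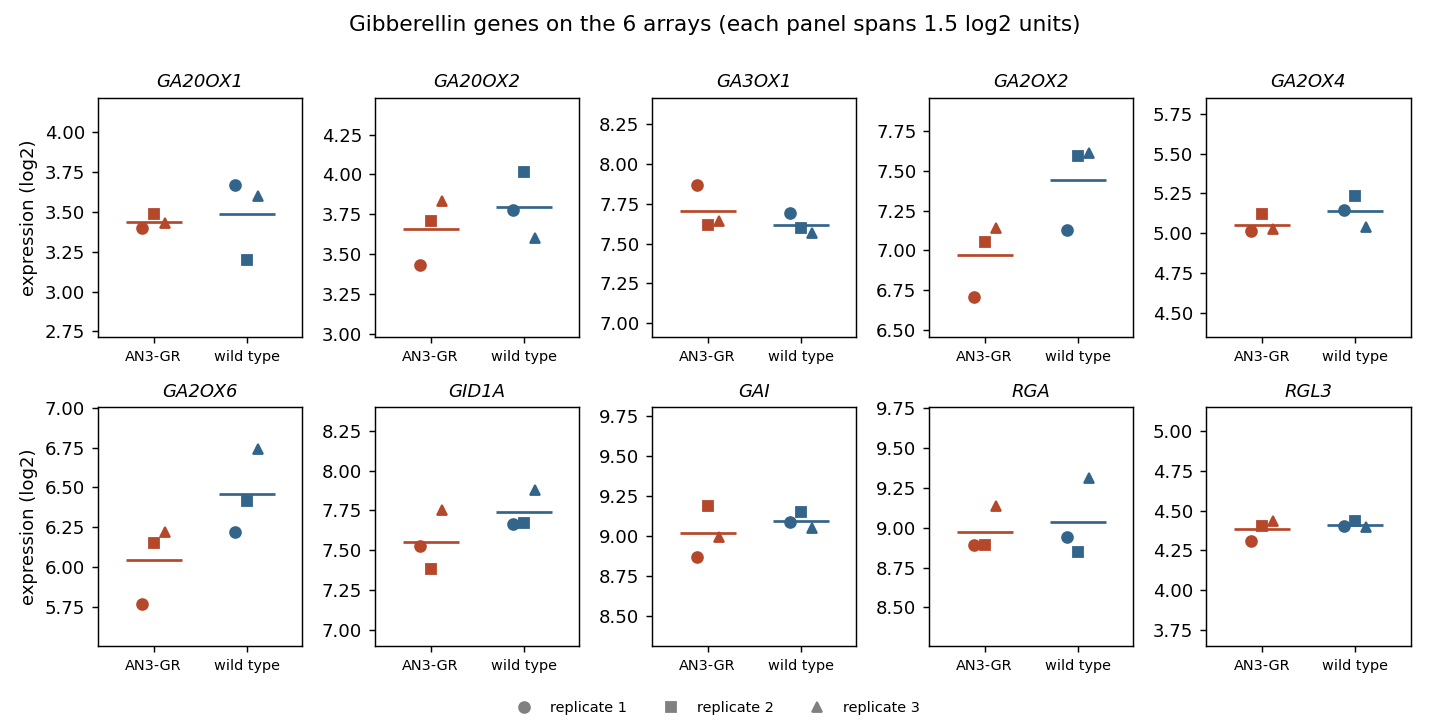
Expression (log2, vertical axis) of the 10 gibberellin genes on the 3 AN3-GR arrays (left) and the 3 wild type arrays (right). Points are arrays, with 1 symbol per replicate number, and bars are group means. For GA2OX2 and GA2OX6 the AN3-GR mean lies 0.47 and 0.41 under the wild type mean, and the groups meet at the lowest wild type array.

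Inactivation was followed through GA2OX2, GA2OX4 and GA2OX6, which encode 2-oxidases acting on the C19 gibberellins, among them the bioactive forms. GA2OX2 had 6.71, 7.05 and 7.14 on the AN3-GR arrays against 7.13, 7.59 and 7.61 on the wild type arrays. All AN3-GR arrays lay under wild type replicates 2 and 3, and AN3-GR replicate 3 lay just above wild type replicate 1. Its level averaged 6.97 ± 0.23 in AN3-GR and 7.44 ± 0.27 in wild type (SD, n = 3 each). That is a log2 change of −0.47 (SE 0.16, 95% interval −0.84 to −0.11), which was not called (limma, adjusted p = 0.174). Between arrays of the same replicate number the difference was −0.42, −0.54 and −0.47, an SD of 0.06, which is smaller than the SD of either genotype. With the replicate block GA2OX2 fell, with an SE of 0.08 and a 95% interval of −0.66 to −0.29 (limma, adjusted p = 0.0264). That call held without the arrays of pair 1 (0.0208) or pair 3 (0.0406) and ended without those of pair 2 (limma, adjusted p = 0.168). The share of all probe sets called was 5.54% and 6.79% without pair 1 and pair 3, but 0.028% without pair 2.

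GA2OX6 had 5.77, 6.15 and 6.22 on the AN3-GR arrays against 6.22, 6.41 and 6.74 on the wild type arrays. The highest AN3-GR array and the lowest wild type array were level, at 6.219 and 6.218. The means were 6.05 ± 0.25 in AN3-GR and 6.46 ± 0.26 in wild type (SD, n = 3 each). That is a log2 change of −0.41 (SE 0.16, 95% interval −0.78 to −0.05), which was not called (limma, adjusted p = 0.229). Differences between arrays of the same number were −0.45, −0.26 and −0.52, all in the same direction. With the block GA2OX6 fell, with an SE of 0.09 (limma, adjusted p = 0.0436). Leaving out any pair ended that call, with adjusted p of 0.0679 without pair 1, 0.160 without pair 2 and 0.0950 without pair 3 (limma).

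GA2OX4 had 5.02, 5.12 and 5.03 on the AN3-GR arrays against 5.15, 5.24 and 5.04 on the wild type arrays. Each AN3-GR array lay under the wild type array of its number, by 0.13, 0.12 and 0.01, but the genotypes overlapped. Its log2 change was −0.09 (SE 0.09, 95% interval −0.30 to 0.13; limma, adjusted p = 0.663). The interval leaves out a change as large as the estimate for GA2OX2, and the difference between the changes of these genes was not tested.

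**Figure D2:**
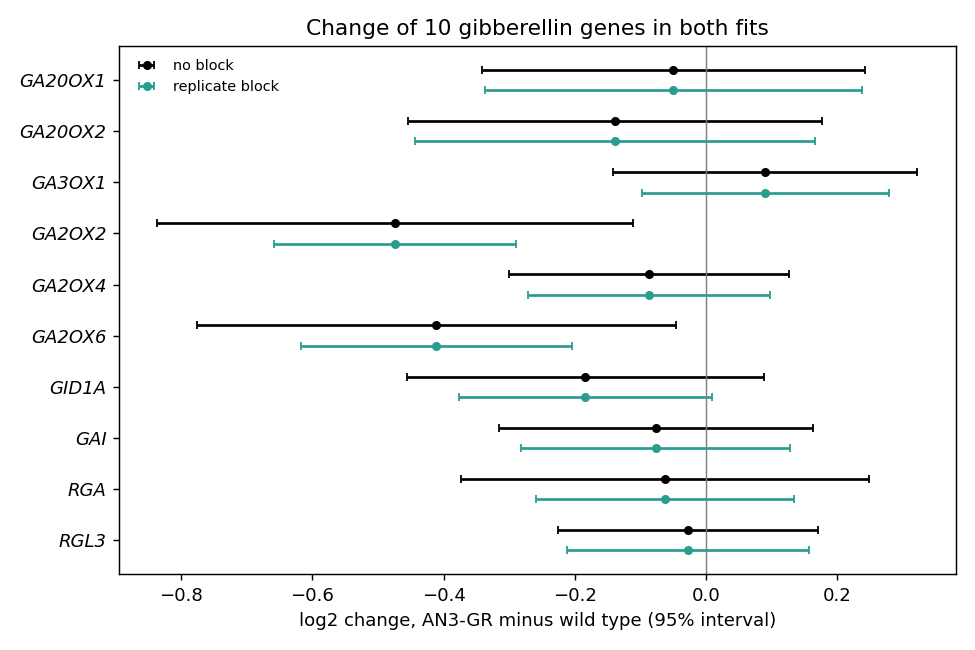
Log2 change, AN3-GR minus wild type (horizontal axis), of the 10 genes with 95% intervals from limma without the replicate block (black) and with it (green). The block leaves each change as it is and narrows the interval of GA2OX2 to −0.66 to −0.29 and that of GA2OX6 to −0.62 to −0.20, while the other 8 intervals include 0 in both fits.

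The changes of the 7 measured 2-oxidase genes were all negative, with a median of −0.10, beside 54.2% negative among all probe sets. After quantile normalization 6 of 7 were negative and the median was −0.04, beside a median of 0.0002 over all probe sets. Without the block 0 of the 7 were called. An unadjusted p under 0.05 was found for 3 of them, all lower, against 7.86% of all probe sets (limma). With the block 2 were called lower, against 3.03% of all probe sets, and these were GA2OX2 and GA2OX6, already given above. The list was chosen with earlier results of these data known, so its counts are description and no independent support. The largest change outside the 3 genes above was that of GA2OX3, also an enzyme for C19 gibberellins, at −0.47 (SE 0.16; limma, adjusted p = 0.169, and 0.144 with the block). GA2OX3 had 3.73, 4.08 and 3.95 in AN3-GR against 4.73, 4.21 and 4.23 in wild type. The arrays of GA2OX3 did not overlap between the genotypes, as for 22.2% of all probe sets, with the largest gap in replicate 1. Its signal was weak in AN3-GR replicates 1 and 3, and the change was −0.38 after quantile normalization and −0.20 with the block and without pair 1. The smallest change was that of GA2OX1, at −0.03, which was weak on all arrays. The 3 measured genes of other inactivating enzymes had changes from −0.27 for the P450 gene CYP714A1 to −0.01 for the methyltransferase gene GAMT2. CYP714A1 was at −0.17 after quantile normalization, −0.17 without AN3-GR replicate 1, and −0.12 and −0.41 with the block and without pair 1 and pair 2. After quantile normalization the highest of the 3 was 0.07. Of the 3 genes 0 were called in either fit and 0 had an unadjusted p under 0.05 (limma). The lower quartile of each array was 3.99 to 4.05 in AN3-GR and 4.21, 4.13 and 3.99 on wild type replicates 1, 2 and 3. The part of these quartiles in the changes of weak probe sets was not tested.

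Synthesis was followed through GA20OX1, GA20OX2 and GA3OX1. GA20OX1, which encodes the 20-oxidase best known for stem growth, had 3.40, 3.48 and 3.43 in AN3-GR against 3.67, 3.20 and 3.60 in wild type. The AN3-GR arrays lay inside the wild type range, at a log2 change of −0.05 (95% interval −0.34 to 0.24; limma, adjusted p = 0.868). GA20OX2, whose product overlaps in function with that of GA20OX1, had 3.43, 3.71 and 3.83 in AN3-GR against 3.78, 4.01 and 3.60 in wild type. Its log2 change was −0.14 (95% interval −0.45 to 0.18; limma, adjusted p = 0.636), with overlapping genotypes and a difference of opposite sign in replicate 3, at 0.23. Both genes were weak on all 6 arrays, so a difference in either may not be detectable on these arrays. All 5 measured 20-oxidase genes were weak in their mean, and 0 were called in either fit, with 0 at an unadjusted p under 0.05 (limma). Their changes ran from −0.25 for GA20OX5 to 0.03 for GA20OX3. GA20OX5 was at −0.15 after quantile normalization, and with the block at −0.15 without pair 1 and −0.38 without pair 3.

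GA3OX1, which encodes the main 3-oxidase of vegetative growth, was well measured. It had 7.87, 7.62 and 7.64 in AN3-GR against 7.69, 7.60 and 7.56 in wild type. AN3-GR replicate 1 was above every other array and the remaining arrays lay close together. The log2 change was 0.09 (SE 0.10; limma, adjusted p = 0.680). Between arrays of the same number AN3-GR was higher by 0.18, 0.02 and 0.07. In fold terms the 95% interval ran from 0.906 to 1.25 times the wild type level. GA3OX2, which acts with GA3OX1 in seedlings, had a change of −0.33 (SE 0.14; limma, adjusted p = 0.255), the lowest of the 4 genes of its kind, where GA3OX1 was the highest. That value was −0.20 without wild type replicate 1, and with the block it was −0.14 without pair 1 and −0.51 without pair 3. Of these 4, 0 were called in either fit. Against 18% of all probe sets, GA3OX2 alone had an unadjusted p under 0.05 (limma). Its arrays of replicate 3 differed little, at 4.66 in AN3-GR and 4.62 in wild type. The 5 genes of the early pathway, which make the precursors in plastids and the endoplasmic reticulum, lay between −0.05 for KAO2 and 0.13 for GA3, the gene of ent-kaurene oxidase. In that list 0 were called in either fit and 0 had an unadjusted p under 0.05 (limma).

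Perception was followed through GID1A, a nuclear gibberellin receptor. GID1A had 7.53, 7.38 and 7.76 in AN3-GR against 7.66, 7.67 and 7.88 in wild type. Each AN3-GR array lay under the wild type array of its number, by 0.14, 0.29 and 0.12, yet the genotypes overlapped because replicate 3 was the highest array in both. The log2 change was −0.18 (SE 0.12, 95% interval −0.46 to 0.09; limma, adjusted p = 0.454, and 0.208 with the block). The other receptor genes pointed in different directions, GID1B at 0.18 and GID1C at −0.18, and neither was called (limma, adjusted p = 0.348 and 0.329). In both, the arrays of the genotypes did not overlap. That was so for 8 of the 44 other listed gibberellin genes and for 22.2% of all probe sets. Of the F-box genes, SLY1 had a change of 0.08 and its relative SNE, also named SLY2, one of −0.29 (limma, adjusted p = 0.830 and 0.264). Over the 5 genes of receptors and F-box proteins 0 were called in either fit. SNE was the 1 with an unadjusted p under 0.05, against 18% of all probe sets (limma).

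The DELLA genes had the narrowest range of changes among the 10 gibberellin lists, from −0.08 to 0.04. DELLA proteins restrain growth and are controlled mainly by breakdown of the protein, which these arrays do not measure. GAI had 8.87, 9.19 and 8.99 in AN3-GR against 9.09, 9.15 and 9.05 in wild type, with AN3-GR arrays on both sides of the wild type range. Its level in AN3-GR was 0.948 times that in wild type, with a 95% interval of 0.803 to 1.12 (limma, adjusted p = 0.741). RGA, the closest relative of GAI and the main DELLA of vegetative growth, had 8.89, 8.89 and 9.14 in AN3-GR against 8.94, 8.85 and 9.31 in wild type. Replicate 3 was the highest array of both genotypes, and the ratio was 0.958, with a 95% interval of 0.772 to 1.19 (limma, adjusted p = 0.845).

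RGL3, a DELLA gene linked to jasmonate responses, had 4.31, 4.40 and 4.44 in AN3-GR against 4.40, 4.43 and 4.40 in wild type. All 6 values lay close together, a little above the weak range, and AN3-GR replicate 1 was the lowest. The ratio was 0.981, with a 95% interval of 0.855 to 1.13 (limma, adjusted p = 0.898). RGL1 at 0.04 and RGL2 at 0.03 completed the family, and 0 of the 5 DELLA genes were called in either fit, with 0 at an unadjusted p under 0.05 (limma). On the log2 scale the 95% intervals reached down to −0.32 for GAI, −0.37 for RGA and −0.23 for RGL3. The 7 modifiers and partners of the DELLA proteins had changes from −0.11 for SCL3 to 0.10 for SEC. Among them, SPY and SEC are sugar transferases that modify DELLA proteins, and PIF3 and PIF4 are transcription factors that DELLA proteins bind. None of these 7 was called in either fit (limma), and 0 had an unadjusted p under 0.05.

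**Figure D3:**
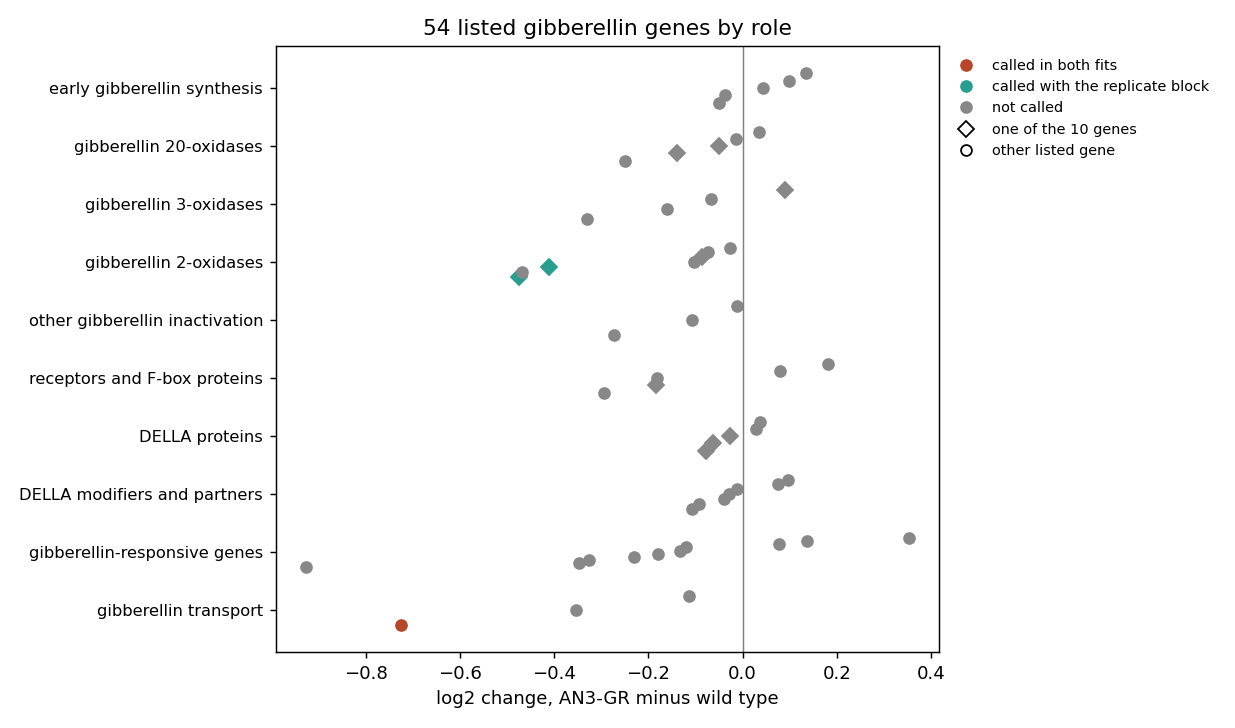
Log2 change, AN3-GR minus wild type (horizontal axis), of the 54 measured genes of 10 gibberellin lists (rows, by role). Diamonds are the 10 genes followed here and circles the other listed genes. NPF3.1 at −0.73 was called in both fits, GA2OX2 at −0.47 and GA2OX6 at −0.41 with the replicate block, and the DELLA genes lay between −0.08 and 0.04.

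Beyond the 10 genes, 44 other genes of the gibberellin lists were measured of 46 listed. Without the block 1 was called, against 0.789% of all probe sets, and with the block the same 1, against 6.63%. This was NPF3.1 (AT1G68570), a membrane transporter that takes up gibberellin and also carries abscisic acid and nitrite. NPF3.1 had 7.44, 7.38 and 7.58 in AN3-GR against 8.23, 8.20 and 8.14 in wild type, so that the genotypes lay 0.56 apart at their nearest arrays. It fell to 60.5% of the wild type level, a log2 change of −0.73 (SE 0.09; limma, adjusted p = 0.0272, and 0.0188 with the block). The call ended without AN3-GR replicate 1 (0.191), 2 (0.0733) or 3 (0.0522) and without wild type replicate 1 (0.0617) or 2 (0.145), and held without wild type replicate 3 (limma, adjusted p = 0.0193). The change itself stayed between −0.78 and −0.68 in those fits. With the block the call ended without pair 2 (limma, adjusted p = 0.156). The sugar transporters SWEET13 at −0.35 and SWEET14 at −0.11, which also carry gibberellin, were not called. Both were weak in their mean. SWEET13 had an adjusted p of 0.273, and 0.0553 with the block (limma). It was at −0.22 without wild type replicate 1, −0.50 without wild type replicate 3 and −0.25 after quantile normalization.

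The list of gibberellin-responsive genes holds some that gibberellin raises, such as GASA6, and some that it lowers, such as GNL. Its median therefore has no single direction as a gibberellin response. The 10 measured genes had a median change of −0.16 and 0 were called in either fit. Of the 10, 4 had an unadjusted p under 0.05, 3 lower and 1 higher, against 18% of all probe sets (limma). These 4 were chosen for naming after their values were seen. GASA6, a small secreted peptide raised by gibberellin, had 7.15, 8.57 and 7.46 in AN3-GR against 8.19, 8.81 and 8.97 in wild type. AN3-GR replicate 2 lay among the wild type arrays, and the change was −0.93 (SE 0.34; limma, adjusted p = 0.202, and 0.0576 with the block). Its size depended on single arrays, at −0.64 without AN3-GR replicate 1 and −1.35 without AN3-GR replicate 2. GASA4, of the same peptide family, had a change of −0.35 and XERICO, a gene that DELLA proteins activate, one of −0.33 (limma, adjusted p = 0.189 and 0.210, and 0.0645 and 0.0557 with the block). Also of the GASA family, GASA1 had a change of −0.18 and GASA14 one of 0.08, and neither was called (limma).

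GNL, also named CGA1, is a GATA factor gene that gibberellin lowers and cytokinin raises. GNL had 8.42, 8.15 and 8.23 in AN3-GR against 8.03, 7.94 and 7.77 in wild type, with every AN3-GR array above every wild type array. Of all probe sets, 22.2% had no overlap in one direction or the other. The change of GNL was 0.35 (SE 0.11; limma, adjusted p = 0.153, and 0.0613 with the block). GNC, a relative of GNL, had a change of 0.14.

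**Figure D4:**
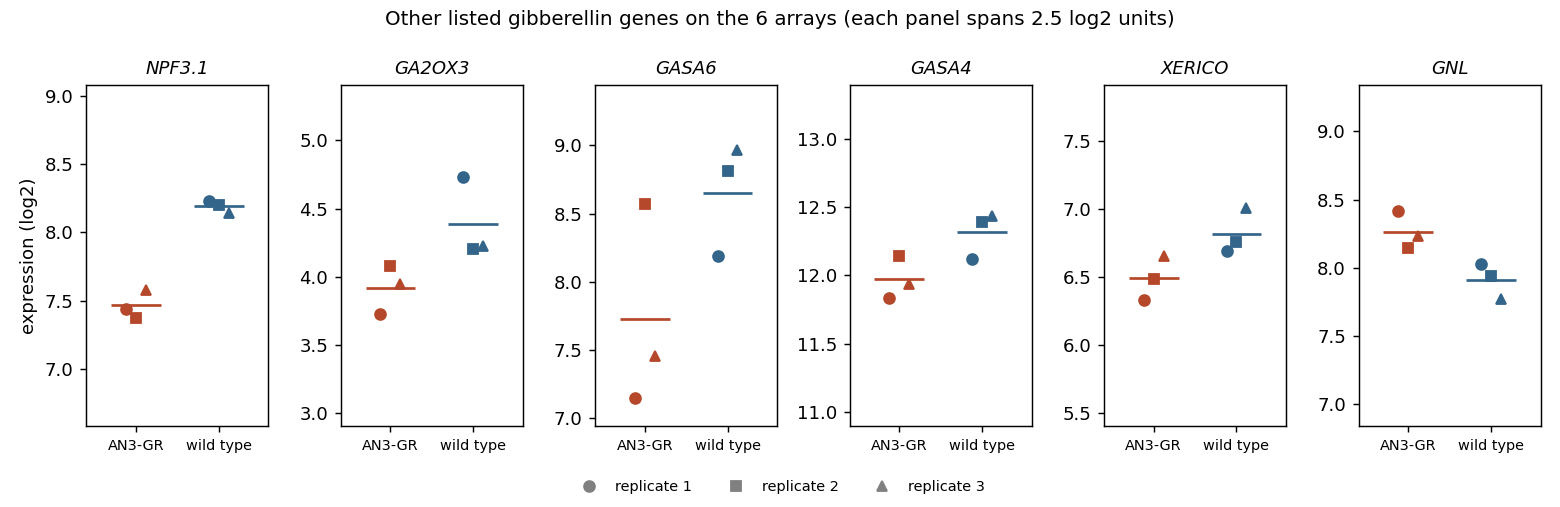
Expression (log2, vertical axis) of 6 other listed gibberellin genes on the 3 AN3-GR arrays (left) and the 3 wild type arrays (right), with 1 symbol per replicate number and bars at group means. The genes other than NPF3.1 were chosen after their values were seen. NPF3.1 shows the widest gap between the genotypes, 0.56, and the AN3-GR arrays of GASA6 run from 7.15 to 8.57.

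Genes of touch and early stress, which respond to handling, had a median change of −0.53 over 12 genes, all 12 being negative. This list, like the members and every other list here, was chosen with earlier results of these data known. The counts of all these lists beside all probe sets are therefore description and no independent support. Without the block 1 of the 12, ERF11, was called, against 0.789% of all probe sets. With the block 7 of the 12 were called lower, against 3.03% of all probe sets. That count was 7 without pair 1, 0 without pair 2 and 8 without pair 3. Without the block, the call of ERF11 held without wild type replicate 3 and ended without any other single array. The mean level of the 12 genes was 7.65, 8.00 and 8.22 on the AN3-GR arrays against 8.18, 8.49 and 8.62 on the wild type arrays, with none at 0. Within pairs the list mean differed by −0.53, −0.49 and −0.40. The differences were −0.42, −0.54 and −0.47 for GA2OX2 and −0.45, −0.26 and −0.52 for GA2OX6. Replicate 1 was the lowest array of both genotypes for GA2OX2 and GA2OX6, for 8 of the 12 touch and early stress genes, and for 11.8% of all probe sets. The 5 measured jasmonate genes had a median of −0.46, with 0 called without the block (limma). With the block 3 were called lower, JAZ1, LOX2 and AOS, against 3.03% of all probe sets (limma). The changes were −1.31 for JAZ1, −1.11 for LOX2, −0.46 for AOS, −0.21 for MYC2 and 0.18 for JAZ10. Without the block 3 of these 5 genes, all lower, had an unadjusted p under 0.05, against 7.86% of all probe sets (limma). The mean level of the 5 was 7.97, 7.92 and 7.76 on the AN3-GR arrays against 8.32, 8.58 and 8.50 on the wild type arrays, with replicate 1 not the lowest in AN3-GR. Within pairs that mean differed by −0.36, −0.65 and −0.74. The part of handling or jasmonate in the values of the 2-oxidases was not tested.

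**Figure D5:**
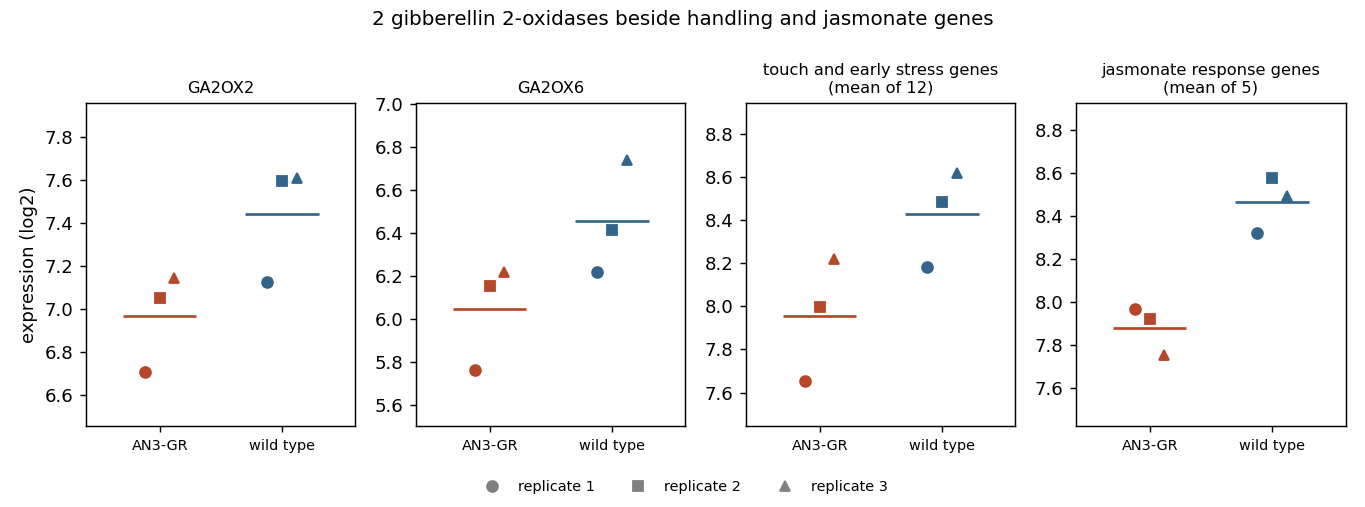
Expression (log2, vertical axis) of GA2OX2 and GA2OX6 and the mean level of 12 touch and early stress genes and of 5 jasmonate genes, on the 3 AN3-GR arrays (left) and the 3 wild type arrays (right). Symbols mark the replicate number and bars the group means. In the first 3 panels replicate 1 is the lowest array of each genotype, and in the jasmonate panel all AN3-GR arrays lie under all wild type arrays.

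The probe sets whose pattern over the 6 arrays was nearest to that of a gene were found by the root-mean-square difference of centred log2 values. For GA2OX2 these were PUB25, a ubiquitin ligase gene, and AT1G35210, at differences of 0.06 and 0.06, where GA2OX2 itself varied by 0.31 around its mean. For GA2OX6 they were NAC036, a transcription factor gene with weak signal, and NAS4, a nicotianamine synthase gene, at 0.05 and 0.05. In all, 32 probe sets lay within 0.1 of GA2OX2 and 38 within 0.1 of GA2OX6. Flatter genes varied less around their own mean, by 0.15 for GA20OX1, 0.10 for GA3OX1 and 0.04 for RGL3. The fixed bound of 0.1 takes in flat probe sets more readily there, so the counts do not compare how distinct the patterns are. Within 0.1 of GA20OX1 lay 194 probe sets, nearest STS, with weak signal, and AT2G29970. For GA3OX1 there were 1892, nearest AT1G15280 and ACA10. For RGL3 there were 4546, nearest AT4G15650 and AT3G29650, both weak in their mean, at 2.86 and 2.79.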

How the data were processed

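RNA from leaves 1 and 2 was hybridised to 6 Affymetrix ATH1 arrays. The deposited values are log2 expression values, which the authors made with RMA, per the submitters' processing notes. These also list limma, and give no version of either. RMA removes any shift shared by all genes. Each probe set is named by 1 Arabidopsis locus, and the version of that probe grouping and the genome build are not given in the sources used here. Of the loci 21231 of 21428, and all 10 members, matched the RefSeq gene table of TAIR10.1, which was used for names only. None of the listed gibberellin genes shared identical values with another probe set.

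No filter or scaling was applied to the deposited values. The fit was lmFit and eBayes in limma 3.58.1 (R 4.3.3) on all 6 arrays and all probe sets, AN3-GR minus wild type. The test is two-sided, with p-values adjusted over the whole table by the Benjamini-Hochberg method. It was also run on simulated arrays with planted changes larger than that of any member and a replicate shift shared by all genes. That run does not show how the fit handles smaller changes or replicate shifts of single genes. The number of arrays limits the precision. Deviations from the group mean correlated between arrays of the same replicate number in the labels (r = 0.161, 0.416 and 0.494, each over 0.1), so the replicate number was also fitted as a block. No label says what a number marks.

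The members, the 10 gibberellin lists and the 8 marker lists were chosen with earlier results of these data known. All members were named, other listed genes when called in either fit or when highest or lowest among a member's relatives, and any further name was picked with its value already seen. The alternatives were quantile normalization, median centring, leaving out weak probe sets, an intensity trend with robust prior, array weights, the replicate block and leaving out each array. Promoter and protein sequences were not used here.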

Additional observations from a re-analysis of the deposited data

How the results depend on the processing

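The number of called probe sets depended strongly on the settings: 169 in all, 564 without the weakest 50% of probe sets, 558 with an intensity trend and robust prior, 1132 with array weights and 1420 with the replicate block. Leaving out single arrays gave 9 to 779. With the block and a pair of arrays left out, an alternative chosen after seeing the data, the counts were 1187, 6 and 1456 without pair 1, 2 and 3. Of the 10 genes 0 were called, 2 with the block, and 1, 0 and 1 with the block and without pair 1, 2 and 3. Of the other listed genes 1 was called, 0 to 1 without single arrays, and 2, 0 and 2 with the block and without pair 1, 2 and 3. The added calls were GASA6 (−0.87, adjusted p = 0.0416) without pair 1 and GA3OX2 (−0.51, adjusted p = 0.0448) without pair 3, where GA3OX2 was at −0.14 (adjusted p = 0.564) without pair 1. The block changed no other call among the listed gibberellin genes. Over the single genes, 139 of 153 values kept their sign and stayed uncalled, and the 4 that became called were those of GA2OX2 and GA2OX6 with the block. The change of GA2OX2 lay between −0.63 and −0.34 and that of GA2OX6 between −0.53 and −0.27 in all settings run. The sign turned 10 times, all at sizes under 0.08 and never in a called value. GA20OX1 was at 0.021 after quantile normalization and 0.0037 with array weights, ran from −0.195 to 0.0405 without single arrays (0.0405 and 0.0053 without wild type replicates 1 and 3), and was at 0.0599 and 0.0086 with the block and without pair 1 and 3. RGL3 was at 0.0719 after quantile normalization, ran from −0.0544 to 0.0083 without single arrays, and was at 0.0034 with the block and without pair 1. RGA ran from −0.155 to 0.0772 without single arrays, the highest being without wild type replicate 3. The cause of these differences was not tested. GA20OX1 and GA20OX2 gave no value without the weakest 25% of probe sets, and these with GA2OX4, GA2OX6 and RGL3 gave none without the weakest 50%.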

Other observations

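The other marker lists held 0 calls in either fit. Without the block 1 gene, APL, had an unadjusted p under 0.05, against 18% of all probe sets (limma). The 7 measured clock genes had a median change of 7.31e-05, and their mean level was 5.81, 6.18 and 5.61 on the AN3-GR arrays against 5.79, 6.04 and 5.70 on the wild type arrays, with replicate 2 the highest in both genotypes. The 6 vasculature markers had a median of 0.05. Among them APL, a phloem factor, had the largest change, 0.28 (limma, adjusted p = 0.175, and 0.0799 with the block). Its arrays did not overlap between the genotypes, which was so for 22.2% of all probe sets. The 5 stomatal lineage markers had a median of −0.08, the 9 meristem and boundary markers one of −0.05, the 5 root markers one of −0.01 and the 3 leaf photosynthesis markers one of −0.17. After quantile normalization the medians of the meristem and root markers were 0.03 and 0.06, with 2 of the 9 meristem markers negative in place of 9. Among the meristem markers, STM and KNAT1, which repress gibberellin synthesis in the shoot apex, had changes of −0.04 and −0.03. KNAT1 was weak on all 6 arrays.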
